A study of Mus musculus with 24 samples.

Results

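The Dlk1-Dio3 domain on mouse chromosome 12 holds a long array of miRNA genes, and plasma levels of its members outside the miR-376 family were examined in mice that had inhaled particles. Members were chosen by name, as the mouse miRNA probes of the NanoString nCounter panel whose miR number belongs to 48 numbers of this domain, in any letter or arm form. The rule gave 59 of the 566 mouse miRNA probes, which stand for 48 miRNA genes. The rule itself uses names only, and it was set with earlier results of these data known.

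The 24 plasma samples came from male mice of the inbred C57BL/6J strain, 20 weeks old by their labels. Groups of 8 separate animals had inhaled EPFR, EPFR lo or filtered air for 4 h/d on 5 days, the particles at 250 µg/m3 by the design text. EPFR are combustion-derived particles that carry environmentally persistent free radicals, and EPFR lo are particles with a lower radical content given at the same particle mass. No mouse carried a transgene, and hemolyzed plasma had been excluded by the methods of the study.

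Dlk1-Dio3 is an imprinted domain, in which a gene is read from the maternal or the paternal chromosome only. The paternal copy expresses the protein genes Dlk1, Rtl1 and Dio3, while the maternal copy expresses the long noncoding RNA Meg3, Rian and Mirg and the miRNA and small nucleolar RNA that lie among them. These miRNA are best known from the embryo, the placenta and the brain. Those on the opposite strand of Rtl1 pair with its mRNA along their whole length and direct its cleavage.

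All 48 genes lie on the plus strand between Mir770 and Mir410, at chr12:109563692-109743795 of GRCm38.p6. Mir770 lies within Meg3. Before Mir431 stand 9 probes of 5 genes, and 6 probes of 5 genes belong to Mir431 through Mir136, which are read antisense to Rtl1. Of the genes before Mir431, Mir673, Mir337, Mir540 and Mir665 also lie opposite the annotated span of Rtl1. A further 4 probes cover Mir341, Mir1188, Mir370 and Mir882, and the large array from Mir379 to Mir410 has 40 probes of 34 genes.

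Mature sequences were taken from RefSeq (GRCm38.p6) for 46 of the 59 probes, 24 by the same name and 22 by the arm that miRBase later gave to a name without an arm, which the deposited files do not state. The following are shown because the results turn on them, with the seed, bases 2 to 8 that guide target pairing, in capitals. The Mir431 to Mir136 genes supply miR-136, miR-127 and miR-434-3p, and the others are the probe with the highest counts and the probe with the smallest exact permutation p between EPFR and filtered air mice among the 17 members so tested.
miR-136: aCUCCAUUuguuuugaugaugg
miR-127: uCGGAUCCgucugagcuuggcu
miR-434-3p: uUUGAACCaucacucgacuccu
miR-323-3p: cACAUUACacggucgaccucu
miR-337-5p: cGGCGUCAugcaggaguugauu
miR-136 is the 5p arm at chr12:109595331-109595352 and miR-127 the 3p arm at chr12:109592888-109592909. miR-434-3p lies at chr12:109594565-109594586, miR-323-3p at chr12:109712558-109712578 and miR-337-5p at chr12:109585818-109585839. Each lies in the exon of its noncoding miRNA gene, and all but miR-323-3p lie opposite the annotated span of Rtl1.

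The 46 sequences had 46 different seeds. Members are therefore not a seed family, although 3 pairs differed by 1 base of the seed. These pairs are shown because a target of either seed needs only 1 base to match the other.
miR-379: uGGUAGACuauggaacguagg
miR-411: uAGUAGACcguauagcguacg
miR-300: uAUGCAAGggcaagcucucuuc
miR-381: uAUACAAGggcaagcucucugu
The third pair was miR-453 with miR-409-5p, whose seeds are GGUUGCC and GGUUACC. miR-379 and miR-411 averaged 13.7 and 15.5 raw counts over the 24 mice, and miR-300 and miR-381 averaged 10.96 and 11.1.

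Raw counts of all mouse miRNA summed to 8418 to 22152 per mouse in EPFR, 9083 to 30483 in EPFR lo and 8665 to 18568 in filtered air. The 59 members together held 5.74% of these counts. Raw counts include background, so this is not the share of the cluster in plasma miRNA. Blood markers were present, with 4 of 4 red blood cell miRNA and 4 of 4 leukocyte and platelet miRNA above the background limit given below, and miR-451 of red blood cells averaged 3921 counts. Neural miRNA were at background, with 0 of 5 above the limit and means of 11.4 to 14.2. The housekeeping mRNA that set the scaling were themselves under the background limit, with mean counts of 10.96 to 17.9. Their geometric mean per mouse was 9.01 to 22.7 counts, also under the limit. In 4 mice (EPFR lo mice 1, 2 and 4 and filtered air mouse 2) all of them were at the floor after subtraction of the negative controls.

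Few cluster miRNA were measurable in plasma. Negative controls, probes with no target in the sample, averaged 17.3 counts with an SD of 8.43, and the limit of background was set 2 SD above that mean, at 34.1 counts. A higher mean was found for 2 of 59 members (3.39%), against 41 of all 566 miRNA (7.24%). These were miR-323-3p, with a mean of 52.0 counts, and miR-136, with 40.3. miR-136 passed the limit through the particle groups, with means of 47.4 in EPFR, 44.1 in EPFR lo and 29.5 in filtered air. Each mouse also has a limit from its own negative controls. miR-323-3p exceeded it in all 24 mice, miR-136 in 5 EPFR, 6 EPFR lo and 2 filtered air mice, and miR-380-3p in 1 EPFR, 2 EPFR lo and 3 filtered air mice. miR-337-5p, miR-299, miR-382 and miR-377 did so in 1 mouse each, and the remaining 52 members in 0 of 24 mice.

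The panel also carries 33 probes for miRNA of mouse viruses, which serve as a second background. Their means ran from 6.46 to 22.2 counts with a median of 13.8, and 0 exceeded the limit. The median of the member means was 12.8, against 13.04 for all 566 miRNA, and only miR-323-3p, miR-136 and miR-380-3p were above the highest viral probe (5.08% of members, against 14.7% of all miRNA). Within each mouse the mean of the members differed from the mean of the viral probes by -1.01 to 0.97 counts in EPFR, -0.96 to 1.57 in EPFR lo and -1.48 to 0.62 in filtered air. For 56 of the 59 members the mean count was thus not distinguishable from either background at this depth, which does not show that they are absent from plasma. miR-380-3p, with a mean of 24.0, was above the viral probes but under the limit. It was also under the highest mean of a single negative-control probe, 29.0. miR-543 was listed at 1 in all 24 mice, as were 3 other miRNA of the panel, and has no measured difference.

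**Figure D1:**
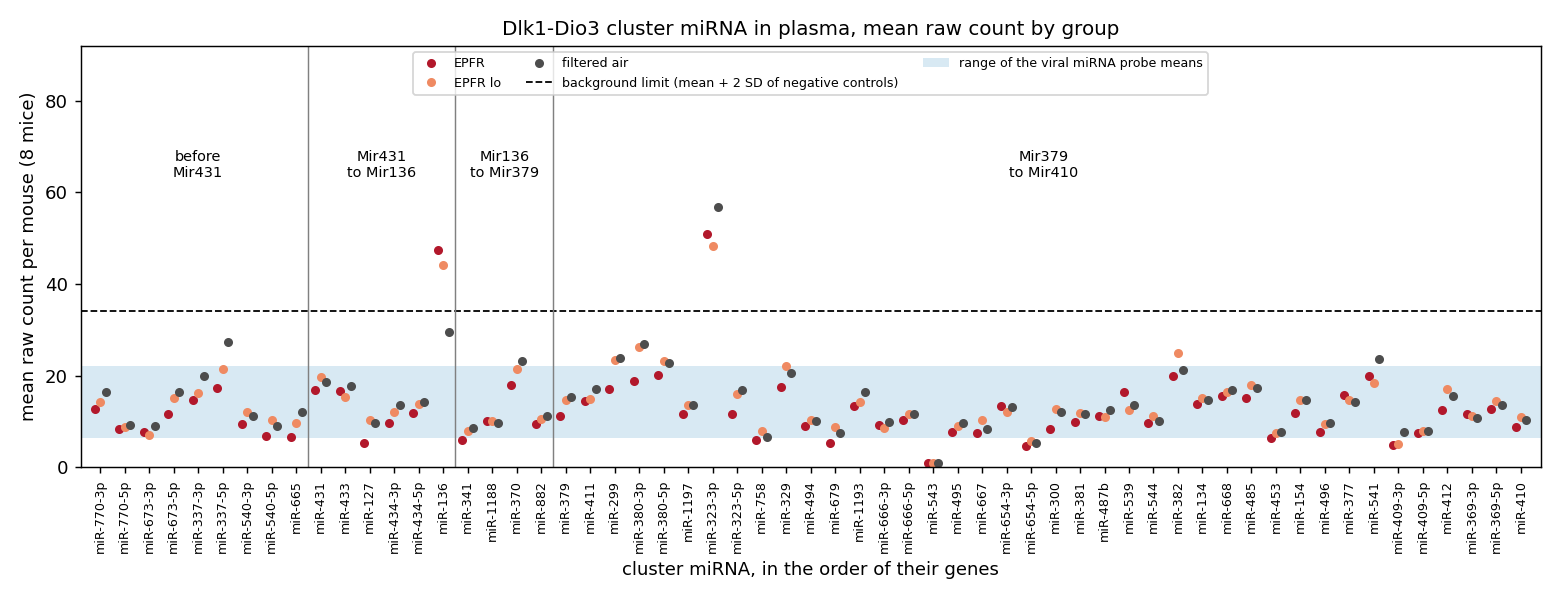
Mean raw count (vertical axis) of each of the 59 cluster miRNA in the order of their genes (horizontal axis), as 1 point per group of 8 mice. miR-323-3p lies above the dashed limit of 34.1 counts in all 3 groups and miR-136 in EPFR and EPFR lo only, and most points lie within the shaded range of the viral probe means, 6.46 to 22.2.

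miR-323-3p, the probe with the highest counts, did not differ between groups beyond the spread of the mice. Its raw counts ran from 39 to 61 in EPFR mice (median 51.5), from 42 to 56 in EPFR lo mice (median 47.5) and from 38 to 70 in filtered air mice (median 57). The ranges overlap almost entirely. With edgeR, the log2 fold change of EPFR against filtered air was -0.09 (SE 0.34, adjusted p = 0.991), with a 95% interval of -0.76 to 0.59. The exact permutation test of 8 against 8 mice on log2 scaled counts gave p = 0.907 (two-sided, as are all such tests here). The other arm of the same hairpin, miR-323-5p, averaged 14.7 counts, and the 3p arm had the higher count in 24 of 24 mice.

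Of the genes before Mir431, which include Mir337 and Mir665, 9 of 9 probes were at or below the background limit, with means of 7.92 to 22 counts. miR-337-5p had raw counts of 12 to 27 in EPFR mice (median 17), 11 to 28 in EPFR lo mice (median 23) and 24 to 35 in filtered air mice (median 27.5). All but 1 of the 8 EPFR mice lay below the lowest filtered air mouse, whereas the EPFR lo mice spread over both ranges. The scaled counts averaged 18.5 ± 3.08 in EPFR, 24.95 ± 11.8 in EPFR lo and 28.4 ± 9.18 in filtered air (SD, n = 8 mice each). The log2 fold change of EPFR against filtered air was -0.61 (SE 0.31), which did not pass over the 566 miRNA with edgeR (adjusted p = 0.962). The exact permutation test for this probe alone, not adjusted over miRNA, gave p = 0.0115. miR-337-5p has 1 of the 8 highest means, but its edgeR p was also among the 6 smallest in this comparison. This unadjusted p is therefore not separate evidence. Within mice 1 to 4 and within mice 5 to 8 of each group, a split added after seeing the data, the log2 fold change was -0.62 and -0.59.

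In all but 1 filtered air mouse, miR-337-5p stayed at or under the mouse's own background limit. The negative controls were also lower in EPFR mice, with means of 12.8 to 17.4 counts (median 15.6), against 14.0 to 20.9 (median 18.4) in filtered air mice. In the deposited values, from which the negative controls are subtracted, miR-337-5p averaged 3.55 ± 2.39 in EPFR, 6.86 ± 5.23 in EPFR lo and 10.9 ± 3.86 in filtered air (SD, n = 8 mice each), and the log2 fold change of EPFR against filtered air was -1.50 with limma (pseudocount 1, adjusted p = 0.171). Scaling to the 100 miRNA with the highest counts brought miR-337-5p past the threshold in edgeR (adjusted p = 0.0468), and no other alternative did except scaling to the ligation controls. DESeq2, another count test, gave this probe no adjusted p (unadjusted p = 0.00741), so it could not be called there. The 3p arm of the same hairpin, miR-337-3p, averaged 14.6 ± 5.58 raw counts in EPFR, 16.1 ± 6.90 in EPFR lo and 19.9 ± 4.52 in filtered air (SD, n = 8 mice each).

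miR-665 had raw counts of 2 to 10 in EPFR mice (median 7), 6 to 14 in EPFR lo mice (median 9.5) and 7 to 16 in filtered air mice (median 12.5). The log2 fold change of EPFR against filtered air was -0.71 (SE 0.35, adjusted p = 0.962 with edgeR), and the exact permutation test gave p = 0.0828. miR-665 too passed with scaling to the 100 highest miRNA (adjusted p = 0.0260 in edgeR), while the deposited values, at the floor in all mice, gave 0.04 with limma (adjusted p = 0.858). The EPFR and filtered air ranges overlap, and 3 EPFR mice lie below the lowest filtered air mouse. miR-540-5p, of the neighboring gene Mir540, had 4 to 12 counts in EPFR (median 6), 6 to 16 in EPFR lo (median 10) and 6 to 15 in filtered air (median 8.5). miR-770-3p, from within Meg3, had 9 to 19 counts in EPFR (median 11), 11 to 20 in EPFR lo (median 13.5) and 10 to 25 in filtered air (median 15.5). The means of both probes are in the range of the viral probe means.

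Among the miRNA of Mir431 to Mir136, miR-136 had the highest counts. With scaling to the positive controls and housekeeping mRNA, its log2 fold change in EPFR against filtered air was the largest in size of all members. With scaling to the 100 highest miRNA it was 0.59, smaller in size than that of miR-127 at -0.96. Its raw counts ran from 24 to 81 in EPFR mice (median 49), from 11 to 78 in EPFR lo mice (median 45.5) and from 12 to 54 in filtered air mice (median 27.5). The ranges overlap, with 7 of 8 EPFR and 6 of 8 EPFR lo mice above the filtered air median. Scaled counts averaged 54.4 ± 27.6 in EPFR, 48.5 ± 23.4 in EPFR lo and 29.7 ± 15.4 in filtered air (SD, n = 8 mice each).

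The log2 fold change of miR-136 was 0.87 (SE 0.34) in EPFR against filtered air and 0.71 (SE 0.34) in EPFR lo against filtered air, 1.83-fold and 1.63-fold. Neither passed over the 566 miRNA, with adjusted p = 0.460 and 0.825 in edgeR. The exact permutation tests gave p = 0.0544 and 0.123. EPFR and EPFR lo differed by 0.16 (SE 0.33), with a 95% interval of -0.48 to 0.81. DESeq2 called miR-136 in EPFR (log2 fold change 0.86, adjusted p = 0.0124), whereas over all alternative settings its adjusted p ran from 0.0124 to 0.999, and scaling to the ligation controls turned the value to -0.67. Within mice 1 to 4 and within mice 5 to 8 the log2 fold change was 0.91 and 0.85 in EPFR and 1.02 and 0.49 in EPFR lo against filtered air.

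Some markers of cells and tissues that release miRNA into plasma passed in the same comparisons, and most did not. Summed over miR-451, miR-144, miR-16 and miR-486, all above the background limit, raw counts were 1699 to 10803 in EPFR mice (median 4894), 2224 to 15352 in EPFR lo mice (median 5505.5) and 1397 to 7602 in filtered air mice (median 1850.5), and 0 of the 4 passed in either comparison with filtered air. The 4 leukocyte and platelet miRNA, all above the limit too, summed to at most 545 counts in EPFR (median 286), at most 678 in EPFR lo (median 315) and at most 388 in filtered air (median 196). Of these 4, miR-142-3p passed in both comparisons with filtered air, with a log2 fold change of 1.69 in EPFR and 1.47 in EPFR lo (adjusted p = 0.00181 and 0.0306 with edgeR). Of 3 striated muscle miRNA, 1 above the limit, miR-1 passed in EPFR (1.98, adjusted p = 2.66e-05), with list sums of 30 to 506 counts in EPFR (median 53), 41 to 99 in EPFR lo (median 70) and 33 to 65 in filtered air (median 50). Of 2 liver miRNA, 0 above the limit, miR-122 passed in EPFR lo (1.62, adjusted p = 0.00102), with list sums of 20 to 80 counts in EPFR (median 30), 20 to 138 in EPFR lo (median 76) and 13 to 51 in filtered air (median 27). The part of these miRNA in the miR-136 result was not tested.

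Counts of miR-136 moved with the assay's ligation controls. These are synthetic RNA, added to each reaction, whose counts report how well the tags were joined to RNA, and they hold no mouse RNA. The geometric mean of the positive ligation controls was 2528 to 7251 counts in EPFR mice (median 5442), 1018 to 6346 in EPFR lo mice (median 4457) and 353 to 3988 in filtered air mice (median 2172). Across the 24 mice the log2 raw count of miR-136 rose with it, with Pearson's r = 0.894 and Spearman's rho = 0.881 (permutation p = 1e-05 for each, the smallest that 100000 resamples give, and 8e-05 after Benjamini-Hochberg adjustment over 8 relations, those of the 8 members with the highest counts). Without the 2 mice farthest from the median ligation level, r was 0.899. Within mice 1 to 4 and mice 5 to 8 it was 0.901 and 0.792 (n = 12 mice each), and within EPFR, EPFR lo and filtered air it was 0.882, 0.946 and 0.858 (n = 8 mice each).

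Of 562 miRNA whose counts vary, miR-136 had the highest r with the ligation controls. Over the 58 members that vary the median r was 0.15, the next highest member reached 0.54, and miR-323-3p had r = -0.28 (permutation p = 0.186, 0.434 adjusted). Of the other members tested, miR-382 passed by rank, with rho = 0.539 (permutation p = 0.00686, 0.0274 adjusted), but not by Pearson's r = 0.358 (permutation p = 0.0869, 0.348 adjusted). Within single groups of 8 mice r was also high for miR-337-5p in EPFR lo (0.948) and for miR-370 in EPFR and EPFR lo (0.748 and 0.713). Over all 24 mice it was 0.02 for miR-337-5p and 0.21 for miR-370, and within mice 5 to 8 it was -0.54 and -0.73. Among the 41 miRNA above the background limit the median was 0.589. With the ligation level as a covariate in edgeR, an alternative added after seeing the data, the log2 fold change of miR-136 was 0.12 in EPFR and 0.18 in EPFR lo against filtered air (adjusted p = 0.999 and 0.998). The ligation levels of EPFR and filtered air mice overlap only between 2528 and 3988 counts, so exposure and ligation level cannot be told apart here. As the miRNA with the highest r with this covariate, miR-136 was also likely to lose its fold in that fit from the start. The cause of the miR-136 values was not tested.

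**Figure D2:**
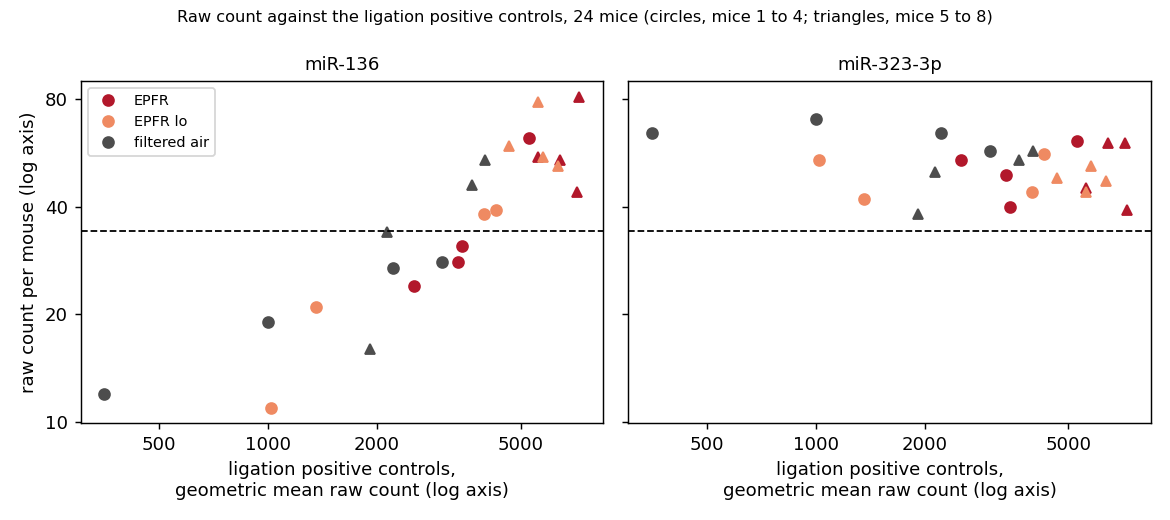
Raw count per mouse (vertical log axis) of miR-136 and miR-323-3p against the geometric mean raw count of the positive ligation controls (horizontal log axis), with 1 point for each of 24 mice, colored by group. miR-136 climbs along the axis in all 3 groups (r = 0.894), and miR-323-3p does not (r = -0.28). The dashed line is the background limit of 34.1 counts.

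The other probes of this stretch, miR-431, miR-433, miR-127 and both arms of miR-434, were at background. miR-127 had 4 to 7 raw counts in EPFR mice (median 5.5), 2 to 23 in EPFR lo mice (median 9) and 5 to 12 in filtered air mice (median 10). EPFR mice were low and close together, and 3 of 8 lay below the lowest filtered air mouse. The log2 fold change was -0.75 (SE 0.36) in EPFR against filtered air and -0.91 (SE 0.36) in EPFR against EPFR lo, with adjusted p = 0.928 and 0.955 in edgeR. The exact permutation tests gave p = 0.0283 and 0.0987. miR-127 was tested because its edgeR p was among the 6 smallest in both comparisons, so these unadjusted p are not separate evidence. Both comparisons also use the same 8 EPFR mice. After subtraction of the negative controls nearly every mouse is at the floor for this probe, and the deposited values gave a log2 fold change of 0.04 in EPFR against filtered air with limma (pseudocount 1, adjusted p = 0.877).

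miR-434-3p had 4 to 12 counts in EPFR mice (median 10), 8 to 16 in EPFR lo mice (median 12.5) and 6 to 23 in filtered air mice (median 12). The groups overlap, and the log2 fold change of EPFR against filtered air was -0.42 (SE 0.34, adjusted p = 0.991 with edgeR, exact permutation p = 0.395). Without filtered air mouse 2 it was -0.11, so this 1 mouse moved the value by more than any other. miR-431 averaged 16.8 ± 3.37 raw counts in EPFR, 19.8 ± 4.06 in EPFR lo and 18.6 ± 2.56 in filtered air, and miR-433 averaged 16.6 ± 4.00 in EPFR, 15.4 ± 3.11 in EPFR lo and 17.6 ± 2.83 in filtered air (SD, n = 8 mice each).

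**Figure D3:**
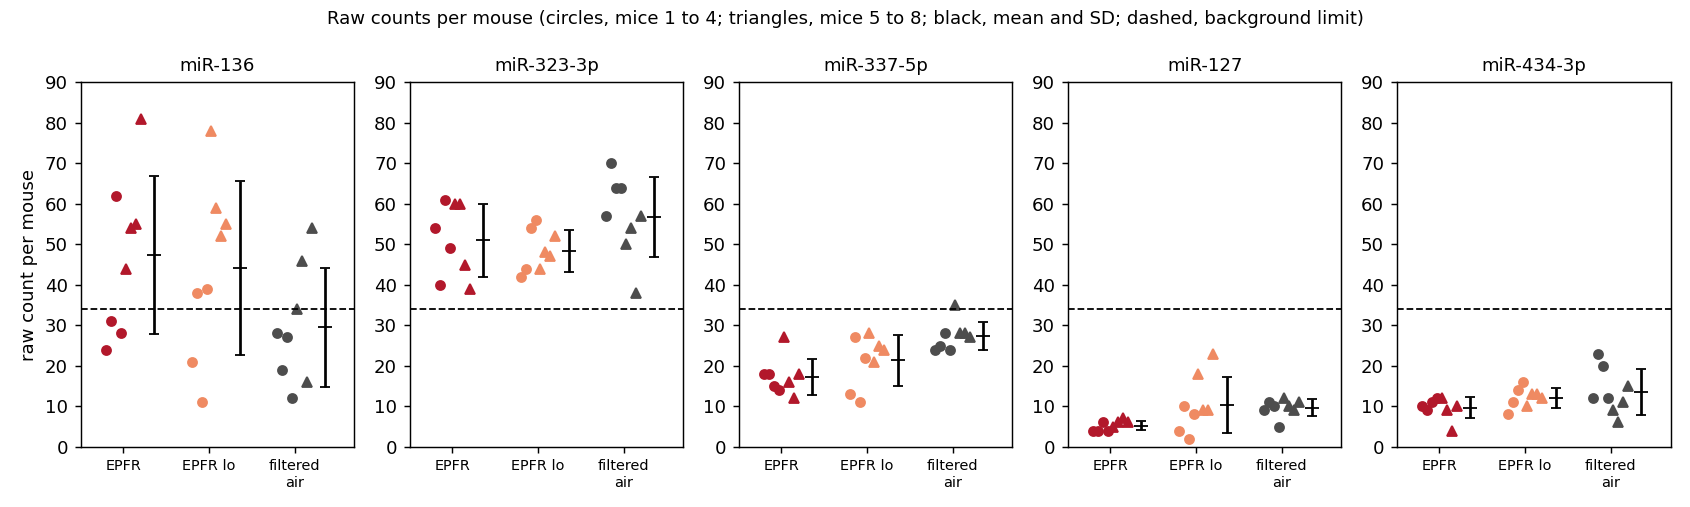
Raw count per mouse (vertical axis) of 5 cluster miRNA in EPFR, EPFR lo and filtered air mice (horizontal axis), with the mean and SD of 8 mice in black. Circles are mice 1 to 4 and triangles mice 5 to 8 of each group. The counts of miR-127 and miR-434-3p lie under the dashed limit of 34.1 in all 24 mice, while miR-323-3p lies above it in all 24.

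Between Mir136 and Mir379, where Mir341, Mir1188 and Mir370 lie within Rian, the 4 probes averaged 7.46 to 20.8 counts. miR-370, the highest of them, had 7 to 26 counts in EPFR mice (median 17.5), 14 to 27 in EPFR lo mice (median 22.5) and 15 to 34 in filtered air mice (median 23). The groups overlap throughout.

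In the array from Mir379 to Mir410, miR-323-3p was the only probe of 40 with a mean above the limit, and the median of the probe means was 12.9 counts. miR-380-3p had 11 to 38 counts in EPFR mice (median 15), 7 to 57 in EPFR lo mice (median 23.5) and 12 to 46 in filtered air mice (median 26.5). These counts divided by mouse number. Mice 1 to 4 of the 3 groups had 7 to 23 counts and mice 5 to 8 had 13 to 57, with means of 14.9 and 33.1 (n = 12 mice each). miR-136 averaged 28.3 counts in mice 1 to 4 and 52.3 in mice 5 to 8, and miR-323-3p averaged 54.6 and 49.5. The count table lists mice 1 to 4 and mice 5 to 8 of each group in separate blocks, and the methods say that samples were run in several batches, but no label gives the batch of a mouse. Of the 59 members 46 had the higher mean in mice 5 to 8 (78.0%, against 89.9% of all 566 miRNA), and the median ratio of the means was 1.39, against 1.37 for all miRNA, 1.28 for the viral probes and 1.11 for the negative controls.

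miR-299 had 12 to 23 counts in EPFR mice (median 17.5), 14 to 47 in EPFR lo mice (median 20) and 15 to 33 in filtered air mice (median 22.5). miR-382 had 12 to 27 counts in EPFR mice (median 20.5), 21 to 35 in EPFR lo mice (median 22.5) and 13 to 35 in filtered air mice (median 20.5). miR-380-5p had 15 to 26 counts in EPFR mice (median 19.5), 10 to 34 in EPFR lo mice (median 24) and 19 to 28 in filtered air mice (median 22). In these 3 probes the groups overlap. miR-134, which in rat neurons limits the size of dendritic spines, averaged 13.8 ± 4.23 raw counts in EPFR, 15.1 ± 3.31 in EPFR lo and 14.8 ± 4.37 in filtered air (SD, n = 8 mice each), which is within the viral range.

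Other probes of the array that the naming rule admits were dim as well. miR-323-5p had 5 to 22 counts in EPFR mice (median 10.5), 12 to 20 in EPFR lo mice (median 16) and 15 to 20 in filtered air mice (median 16). While 5 of 8 EPFR mice lay below the lowest filtered air mouse, the difference did not pass. The log2 fold change of miR-323-5p in EPFR against filtered air was -0.46 (SE 0.32, adjusted p = 0.991 with edgeR, exact permutation p = 0.0636). miR-679 had 1 to 8 counts in EPFR mice (median 6), 6 to 11 in EPFR lo mice (median 8.5) and 3 to 11 in filtered air mice (median 8.5). Its log2 fold change of EPFR against EPFR lo was -0.73 (SE 0.35, adjusted p = 0.955 with edgeR). The exact permutation p was 0.0494, and 0.0535 with a pseudocount of 10. miR-679 was tested because its edgeR p was among the 6 smallest in this comparison, so this unadjusted p is not separate evidence. miR-667 had a median of 7.5 counts in EPFR, 10 in EPFR lo and 8 in filtered air mice. miR-300 had a median of 9 counts in EPFR, 13 in EPFR lo and 12 in filtered air mice, and miR-409-3p had 5 in EPFR, 5 in EPFR lo and 7.5 in filtered air mice. The medians of miR-679, miR-667, miR-300 and miR-409-3p are all below that of the viral probe means, 13.8.

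Both arms were on the panel for 11 hairpins. The 3p arm had the higher count in 24 of 24 mice for Mir323, 23 for Mir654 and 21 for Mir770, and in 3 for Mir337 and Mir673. Only for Mir323 was an arm above background. The arms are read by different probes, each with its own efficiency and background, so these counts do not give the ratio of the arms.

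Over the cluster, 0 of 59 members passed at an adjusted p under 0.05 in EPFR against filtered air with edgeR, where 0.707% of all 566 miRNA did. At an unadjusted p under 0.05 there were 4 members (6.78%), against 5.12% of all miRNA. miR-136 was higher in EPFR, against 3.89% of all miRNA, and miR-127, miR-665 and miR-337-5p were lower, against 1.24%. In EPFR lo against filtered air 0 members passed the adjusted threshold (0.707% of all miRNA did), and miR-136 was the only member at an unadjusted p under 0.05 (4.59% of all miRNA, and 4.42% in that direction). In EPFR against EPFR lo 0 members passed (0.177% of all miRNA did), with miR-127 and miR-679 lower at an unadjusted p under 0.05 (2.47% of all miRNA, 1.94% lower and 0.53% higher). DESeq2 called 1 member, miR-136, in EPFR against filtered air, where it called 18 over all miRNA. It called 0 members in EPFR lo against filtered air (13 over all miRNA) and in EPFR against EPFR lo (1 over all miRNA). DESeq2 gives no adjusted p to miRNA that it filters for low counts, so not all 59 members could be called. In EPFR against filtered air miR-337-5p, miR-665, miR-127 and miR-434-3p had none. The first and second comparisons share the filtered air mice.

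The median log2 fold change of the members was -0.11 in EPFR against filtered air, 0.09 in EPFR lo against filtered air and -0.20 in EPFR against EPFR lo. The medians of all 566 miRNA were -0.09, 0.11 and -0.18, so the members lay within 0.03 of the panel in each comparison. These directions depend on the processing. With another scaling the EPFR lo median was -0.03 with TMM and -0.02 with DESeq2 (all miRNA: -0.01 and -0.01). With limma on the deposited values, which keep the scaling and subtract the negative controls, the EPFR median was 0.04 (all miRNA: 0.04). With scaling to the ligation controls, whose counts were lower in filtered air mice, the median of all miRNA in EPFR was -1.72 and that of the members -1.72, and 57 members were called lower, among 537 calls over all miRNA. Leaving out 1 mouse at a time moved the EPFR median to between -0.25, without filtered air mouse 1, and -0.01, without EPFR mouse 1 (all miRNA: -0.21 and 0.02). The EPFR lo median ran from -0.04 to 0.16 and was below 0 only without filtered air mouse 1 (all miRNA: -0.03).

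miR-543 has no measured difference and is left out of the following counts, as are the other miRNA at 1 in all mice. The log2 fold change was above 0 for 13 of 58 members in EPFR against filtered air (22.4%, against 36.7% of 562 miRNA), for 39 in EPFR lo against filtered air (67.2%, against 68.5%) and for 12 in EPFR against EPFR lo (20.7%, against 23.1%). The median SE of a member was 0.33, and in the same comparisons the 95% interval lay within -1 and 1 on the log2 scale for 44, 53 and 41 members. These SE and intervals belong to the scaling with housekeeping mRNA. In EPFR against filtered air the SE of miR-323-3p was 0.34 there. It was 0.21 with TMM, 0.20 with positive-control scaling and 0.45 with ligation-control scaling. The adjusted p of miR-337-5p in edgeR was 0.962 there and 0.207 with TMM. The folds of the members are of whole counts, background included, so the fold of a dim miRNA also carries any difference in background between groups. In plasma, fewer releasing cells and less miRNA released per cell cannot be told apart.

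**Figure D4:**
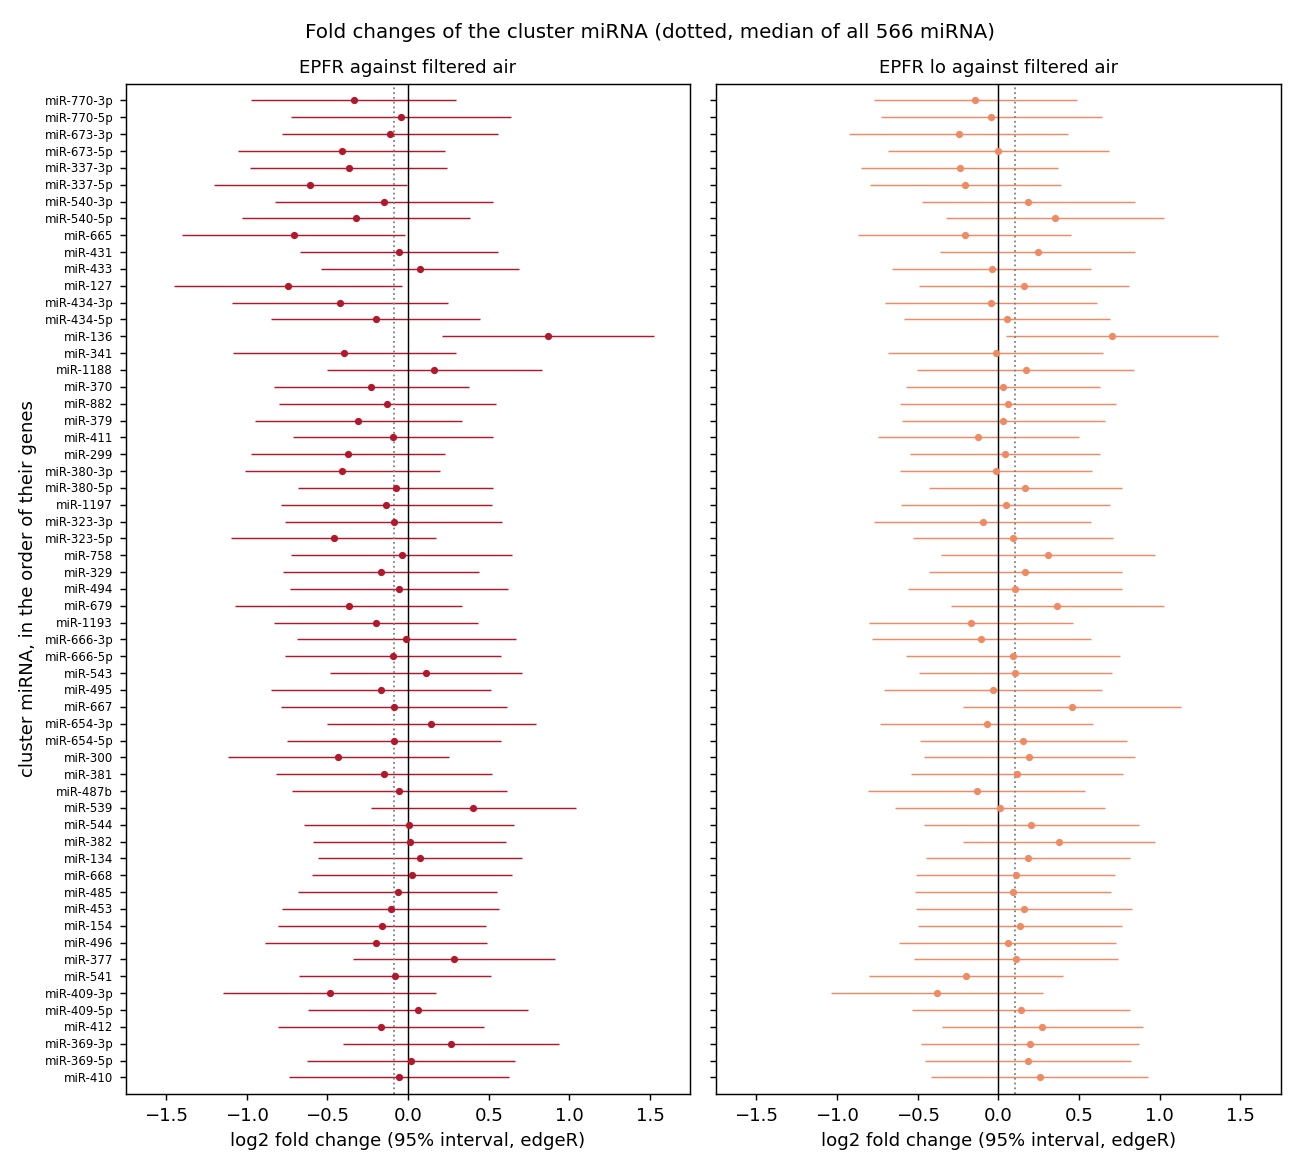
Log2 fold change with its 95% interval from edgeR (horizontal axis) of each of the 59 members in the order of their genes (vertical axis), for EPFR and for EPFR lo, each against filtered air. The dotted line is the median of all 566 miRNA (-0.09 and 0.11), and miR-136 is the member with the highest value in both panels (0.87 and 0.71).

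Along the cluster the probes before Mir431 had a median log2 fold change of -0.34 in EPFR against filtered air, with 0 of 9 positive. The median was -0.13 for Mir431 to Mir136 (2 of 6 positive), -0.18 for Mir136 to Mir379 (1 of 4) and -0.09 for Mir379 to Mir410 (10 of 39, without miR-543). In EPFR lo against filtered air the medians were -0.14, 0.11, 0.04 and 0.11. These are descriptions of dim probes, several of which are arms of 1 hairpin.

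Within the same array, miR-376a had raw counts of 33 to 457 in EPFR mice, 17 to 207 in EPFR lo mice and 23 to 69 in filtered air mice, with a log2 fold change of 2.19 in EPFR against filtered air (SE 0.40, adjusted p = 2.66e-05 with edgeR). miR-376b and miR-376c had log2 fold changes of -0.10 and 0.04 in the same comparison. The high counts of miR-376a were in mice 5 to 8. EPFR mice 1 to 4 had 33 to 51 counts and mice 5 to 8 had 116 to 457. In EPFR lo these were 17 to 44 and 113 to 207, and in filtered air 23 to 55 and 32 to 69.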

How the data were processed

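The authors deposited raw counts of each probe of the NanoString nCounter Mouse v1.5 miRNA panel, 1 plasma RNA per mouse without pooling. They also deposited normalized counts, read here as a signal, made in nSolver from the raw counts less the negative-control geometric mean (floor 1), by scaling to the positive controls and to Actb, B2m, Gapdh and Rpl19. All 13584 values lie within 2% of that calculation. Their fold changes and p-values were not used.

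Raw counts of all 566 mouse miRNA were tested in edgeR 4.0.16 (quasi-likelihood, R 4.3.3) over the 24 mice, scaled by each mouse's factor from positive controls and housekeeping mRNA, without a filter, and Benjamini-Hochberg adjustment over the 566. Scaled counts are raw counts times that factor. Single members were compared by exact permutation of 8 against 8 mice (12870 regroupings, smallest p = 0.000155) on log2(scaled count + 1), unadjusted. Several of these members were named for a small edgeR p in the same mice, so their permutation p is not separate evidence. Alternatives used DESeq2 1.42.0, limma 3.58.1 on the deposited values, and other scalings, filters and blocks. The scripts were tested on simulated data.

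Members, lists and tests were chosen with earlier results of these data known. Named members are those with a mean above background, the 8 with the highest means, the 6 with the smallest p in each comparison, and miR-434-3p, which the study names. Other members are given for the arms and neighbors they belong to, and were chosen after their values were seen.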

Additional observations from a re-analysis of the deposited data

Results flagged for a closer look

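Of 63 sets of 8 mice examined for a mouse far from the others, 6 had 1. For independent, normally distributed values chance alone would give about 1 in 20. These sets hold small counts from the same mice, so that rate need not apply and no excess is shown. miR-337-5p had 27 counts in EPFR mouse 5, against at most 18 in the other EPFR mice, and 35 in filtered air mouse 5, against at most 28. miR-299 had 47 counts in EPFR lo mouse 8, against at most 28. miR-127 had 5 counts in filtered air mouse 4, against at least 9, and miR-434-3p had 4 counts in EPFR mouse 7, against at least 9. EPFR mouse 8 had 5 members above its own background limit, against at most 2 in the other EPFR mice. That limit was 25.2 counts, the lowest of the EPFR mice, whose other limits were 29.4 to 37.8.

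Probes for viral miRNA, which no comparison uses, exceeded a mouse's own limit for 2 probes in EPFR mouse 8 and for 1 in EPFR lo mouse 5. The number was 0 in every other mouse of the EPFR, EPFR lo and filtered air groups. EPFR mouse 8 is also the mouse with the most members above its limit, and its miR-136 count of 81 is the highest of the 24. Without it the log2 fold change of miR-136 in EPFR against EPFR lo is -0.01, in place of 0.16. The cause of these values was not tested.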

How the results depend on the processing

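Members called in EPFR against filtered air numbered 2 with top-100 scaling (miR-337-5p and miR-665, adjusted p = 0.0468 and 0.0260), 57 with ligation-control scaling and 1 with DESeq2 (over all miRNA 9, 537 and 18), and in EPFR lo 4 with ligation-control scaling (over all miRNA 30). In EPFR against EPFR lo all settings gave 0. Scaling by the ligation controls gave member medians of -1.72 in EPFR and -1.03 in EPFR lo against filtered air and -0.69 between the particle groups (all miRNA: -1.72, -0.99 and -0.70), and -0.67, -0.41 and -0.26 for miR-136. The member median was 0.39 in EPFR over the 2 above the background limit, which miR-136 passes only through the particle groups, so this median is not independent of the filter, and -0.33 with top-100 scaling in EPFR lo (all miRNA: 0.59 and -0.31). The EPFR lo median was 0.46 within mice 1 to 4 and -0.27 within mice 5 to 8.

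With limma on the deposited values EPFR against filtered air gave 0.019 for miR-323-3p and 0.040 for miR-127 and miR-665. miR-323-3p was 0.11 without the 4 mice whose housekeeping genes were all at the floor, 0.20 in mice 5 to 8 and 0.25 with the ligation covariate. It was -0.19 to 0.11 leaving out 1 mouse at a time. miR-136 in EPFR against EPFR lo was -0.11 in mice 1 to 4, -0.064 with the ligation covariate, and -0.0088 to 0.34 leaving out 1 mouse at a time. Members above background numbered 1 with a limit of 3 SD or the highest negative control. The causes were not tested.

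Mice of different groups with the same replicate number correlated weakly (-0.09 to 0.28, median 0.07, against a median of -0.03 for other pairs). Of 24 such pairs 9 were over 0.1, and 7 of 24 mice correlated best with a mouse of their own number. Whether the numbers pair the mice was not tested. With the replicate number as a block 0 members were called in each comparison, and miR-136 was 0.89 in EPFR (adjusted p = 0.323, edgeR). A block for mice 1 to 4 against mice 5 to 8, a split taken from the order of the count table since no label gives the run of a mouse, mice 1 to 4 only, mice 5 to 8 only and the ligation covariate were added after seeing the data.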
